A study of Mus musculus with 21 samples.

Results

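The SLAM family of receptors was followed through 7 fractions of haematopoietic cells from mouse bone marrow. The members were the genes Slamf1, Cd48, Ly9, Cd84, Slamf6, Slamf7, Slamf8 and Slamf9. They were found on the arrays as the probes whose RefSeq accession belonged to 1 of these symbols, which gave 12 probes for the 8 genes, out of 41174 probes and 18217 named genes in all. Slamf1, Cd48, Slamf6 and Slamf7 each had 2 probes. Unless the other probe is named, each gene is described by its brightest probe, the one with the higher mean over the 21 arrays. All 12 probes were bright enough in at least 1 fraction to be tested.

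SLAM receptors are immunoglobulin-superfamily proteins on the surface of blood cells. Most of them bind a copy of themselves on a neighbouring cell, and their cytoplasmic tails carry tyrosine motifs that recruit the small adaptors SAP and EAT-2, Src-family kinases and phosphatases. CD48 is the exception in structure, since it is held in the membrane by a lipid anchor and serves as the ligand of CD244 and CD2. In bone marrow the family is best known as a code for sorting: CD150, the product of Slamf1, marks stem cells and the early megakaryocyte and erythroid progenitors, whereas CD48 marks most progenitors beyond the stem cell.

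The cells came from C57BL/6 bone marrow, with no treatment or genetic change named in the labels, and each of the 7 fractions was measured on 3 arrays. KLS cells were lineage-negative, Kit+ and Sca1+, and are the most immature fraction. PreMegE was the CD150+ fraction on the erythroid side, CFUe, PreGM and GMP were all gated as CD150-, and GMP was positive for Fcγ receptors whereas the other 3 were negative. Ter119 cells (CD71+ Ter119+) and Mac1Gr1 cells (Mac1+ Gr1+) are the mature ends of the erythroid and myeloid sides, and the lineage cocktail held B220, CD3, CD4, CD8, CD41, Mac1, Gr1 and Ter119. CD150 was thus a gate for 4 fractions and was not listed for KLS, Ter119 or Mac1Gr1. The labels do not say whether the arrays of a fraction came from separate animals, so p-values measure the spread between arrays, which may be technical.

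Levels are given on a log2 scale, as the background-corrected signal relative to its array's 75th percentile, which is thus a level of 0. They can be compared between fractions for 1 probe, not between probes. In a bulk sample, fewer cells of a type and less RNA per cell cannot be told apart. Differences were tested with limma over 29527 probes. A call needed both a 2-fold change or more and a Benjamini-Hochberg adjusted p below 0.05.

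The sort was checked on transcripts before the results. The labels list the same gate markers for CFUe and PreGM, and list Sca1 as positive for both and for PreMegE. Ly6a, which encodes Sca1, had a mean level of 2.57 ± 0.17 (SD, n = 3) in KLS, -3.14 ± 0.22 in PreMegE, -0.31 ± 0.10 in PreGM and -5.81 ± 1.21 in CFUe, with 1 of the 3 CFUe arrays well above background. The summed signal of 8 erythroid genes rose from a log2 sum of 2.38 to 2.96 on the KLS arrays to 4.76 to 5.03 in PreMegE, 5.90 to 6.17 in CFUe and 11.7 to 12.1 in Ter119. Markers of other cells were present as well. The Ter119 arrays held the 11 summed granulocytic genes at a log2 sum of 12.1 to 12.4, beside 12.2 to 12.4 in Mac1Gr1, and all 11 were well above background on every Ter119 array. Their B cell sum (9 genes) was 7.25 to 7.71, above the 5.02 to 5.77 of Mac1Gr1 and the 0.39 to 1.90 of CFUe, and all 6 NK cell genes were well above background on every Ter119 array. KLS held the highest macrophage sum (11 genes), from 4.71 to 6.19, against -0.81 to 0.25 in PreMegE and -0.08 to 0.16 in PreGM. Within CFUe, replicate 3 stood apart, with a granulocytic sum of 4.68 against 2.10 and 2.06 and a B cell sum of 1.90 against 0.39 and 0.45.

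**Figure D1:**
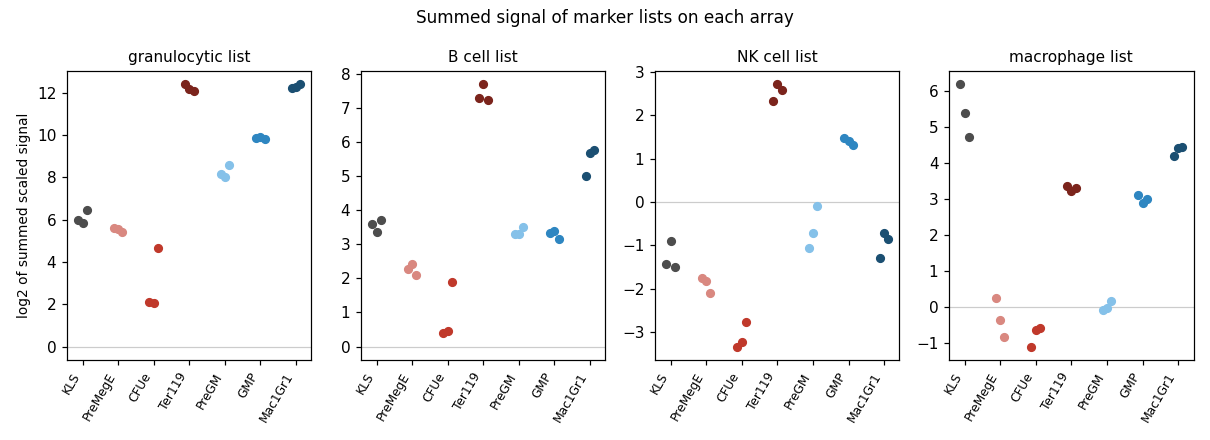
Log2 of the summed scaled signal of the granulocytic, B cell, NK cell and macrophage marker lists on each of the 21 arrays, with 1 point per array and the fractions on the horizontal axis. The 3 Ter119 arrays lie at 12.1 to 12.4 for the granulocytic list and above every other fraction for the B cell list (7.25 to 7.71), whereas KLS is highest for the macrophage list (4.71 to 6.19).

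In the mouse genome (GRCm38.p6) all 8 members lie on chromosome 1. Among protein-coding genes the order is Cd244a, Ly9, Slamf7, Cd48, Slamf1, Cd84 and Slamf6, with 1 other gene between Cd48 and Slamf1 and none between the others, and Slamf9 follows after 14 further genes and Slamf8 after 4 more. RefSeq promoters were found for 7 of the 8 members, Ly9 having none in the table. The 250 bases before the start site were searched on both strands for the GATA motif, spelled AGATAA or AGATAG with A in front and TGATAA or TGATAG with T in front, and for GGAAGTG, a motif of PU.1 and other ETS factors; both kinds were chosen because the study follows GATA1 and PU.1. Over all 32851 promoters of the table, 26.5% held a GATA motif and 8.55% held GGAAGTG in this window. Among the 7 members, Slamf1 and Slamf9 held a GATA motif and Slamf9 held GGAAGTG. A match is a description of letters and does not show that a factor binds. The promoters of 4 members are shown from 5′ to 3′ on the strand of the gene, with motif matches in capitals: Slamf1 because CD150 was sorted on, and Slamf7, Slamf8 and Slamf9 because their patterns over the fractions were the most alike.
Slamf1 (chr1:171766882-171767131, plus strand): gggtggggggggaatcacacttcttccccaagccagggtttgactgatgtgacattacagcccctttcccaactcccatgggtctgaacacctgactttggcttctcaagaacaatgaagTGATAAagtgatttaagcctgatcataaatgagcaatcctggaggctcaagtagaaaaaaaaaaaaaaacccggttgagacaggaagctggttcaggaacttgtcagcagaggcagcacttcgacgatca
Slamf7 (chr1:171649000-171649249, minus strand): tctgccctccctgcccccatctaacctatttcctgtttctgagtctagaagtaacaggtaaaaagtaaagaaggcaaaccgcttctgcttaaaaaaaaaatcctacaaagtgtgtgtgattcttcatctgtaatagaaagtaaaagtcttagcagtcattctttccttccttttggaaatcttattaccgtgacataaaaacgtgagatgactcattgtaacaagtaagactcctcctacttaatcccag
Slamf8 (chr1:172590569-172590818, minus strand): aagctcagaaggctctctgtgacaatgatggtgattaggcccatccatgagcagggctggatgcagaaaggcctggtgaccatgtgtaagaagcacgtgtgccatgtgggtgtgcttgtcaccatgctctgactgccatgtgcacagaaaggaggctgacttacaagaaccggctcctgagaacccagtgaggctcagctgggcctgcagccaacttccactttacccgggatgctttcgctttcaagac
Slamf9 (chr1:172475110-172475359, plus strand): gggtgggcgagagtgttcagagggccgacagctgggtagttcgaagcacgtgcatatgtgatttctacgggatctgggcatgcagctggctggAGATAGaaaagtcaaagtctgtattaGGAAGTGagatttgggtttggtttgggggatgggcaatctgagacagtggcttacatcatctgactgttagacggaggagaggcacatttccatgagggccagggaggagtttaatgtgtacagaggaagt
The TGATAA of Slamf1 began 130 bases before the start site. In Slamf9 the AGATAG began 157 bases and the GGAAGTG 131 bases before it.

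Slamf1 was the member that the sort itself used, and its transcript followed the gate. Its level was 0.21, 0.41 and 0.36 on the PreMegE arrays. It was -5.44, -4.92 and -5.32 in PreGM, -6.67, -7.27 and -5.22 in CFUe and -7.24, -7.30 and -6.87 in GMP. None of these 9 CD150- arrays was well above background, and none came within reach of the PreMegE values. In KLS, which was not gated on CD150, the level was -3.28, -2.86 and -2.86, well above background on every array, and lay between the gated groups without overlap. Since CD150 chose the cells, the differences are a description: PreMegE was at least 44.2-fold higher than PreGM, at least 36.5-fold higher than CFUe and 9.99-fold higher than KLS. A bound of this kind sets the bright mean against the lowest signal that counted as well above background on each dim array, or the probe's own signal where that was higher. PreGM was at least 4.42-fold lower than KLS. Of the ungated mature fractions, Ter119 had a mean of -4.01 ± 0.34 with 2 of 3 arrays well above background, and Mac1Gr1 a mean of -5.01 ± 0.61 with 1 of 3. Their arrays overlapped.

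The second Slamf1 probe was dimmer in PreMegE and less sharply divided. Its level was -1.93, -2.15 and -2.23 in PreMegE, and -4.43, -3.58 and -4.28 in KLS. PreMegE was thus the highest fraction for both probes. In each of the 3 CD150- fractions this probe was well above background on 2 of 3 arrays, with means of -4.23 ± 0.97 in CFUe, -4.81 ± 0.68 in PreGM and -4.69 ± 0.93 in GMP, and the difference between PreMegE and PreGM was 2.71 on the log2 scale, against 5.55 for the brighter probe.

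**Figure D2:**
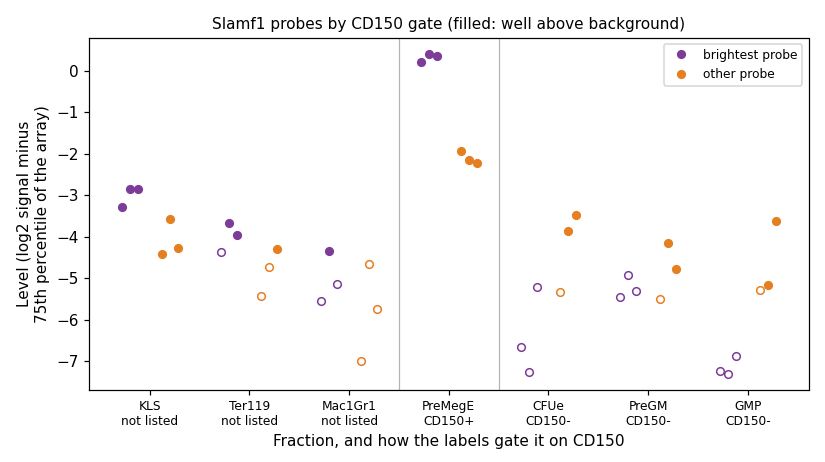
Level of both Slamf1 probes (log2 signal minus the 75th percentile of the array) on each array, with fractions ordered by whether the labels list CD150; filled points were well above background. The 3 PreMegE arrays lie between 0.21 and 0.41 for the brightest probe, and for that probe all 9 arrays of the CD150- fractions are open points at -4.92 or lower.

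Cd48, the lipid-anchored ligand of CD244 and CD2, was well above background on all 21 arrays and was highest in the early myeloid fractions. Its level was 4.09, 4.15 and 4.38 in PreGM, 3.87, 3.82 and 3.60 in GMP and 3.66, 3.45 and 3.61 in KLS. GMP and KLS overlapped, and PreGM lay above both, although with scaling to the spike-in RNAs GMP stood 0.57 above PreGM. PreMegE followed at 3.01, 3.12 and 3.11. The fall came at the next erythroid step, to 0.77, 0.71 and 2.02 in CFUe, where replicate 3 was the high value. Ter119 stood at 2.41, 2.67 and 2.69, above every CFUe array, and Mac1Gr1 at 1.12, 1.35 and 1.51, overlapping CFUe. CD48 is used in the stem cell field as a surface mark of progenitors; among the fractions here its transcript was present throughout, KLS included. The second Cd48 probe was also highest in PreGM (1.39 ± 0.20) and was lowest in Mac1Gr1 (-1.86 ± 0.25), but its Ter119 and CFUe arrays overlapped.

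Ly9 encodes CD229, a self-binding receptor of lymphocytes that carries the tyrosine motifs of the family. It split the early fractions into a high and a low set. Its level was 0.01, -0.02 and -0.17 in KLS, whereas it was -2.48, -2.75 and -2.82 in PreMegE and -2.93, -2.59 and -2.48 in CFUe, which overlapped each other. On the myeloid side it stayed near the KLS level, at -0.56, -0.62 and -0.44 in PreGM and -0.44, -0.45 and -0.39 in GMP. Ter119 (-0.26, -0.28 and -0.39) overlapped GMP, and Mac1Gr1 (-1.62, -1.43 and -1.52) lay between the high and the low set. KLS stood 0.25 above Ter119, the next fraction, whereas with spike-in scaling it came to -0.04 against GMP.

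Cd84, a self-binding receptor of platelets, phagocytes and lymphocytes, was the member with the clearest rise at the end of the myeloid side. Its level was 3.98, 3.93 and 3.74 in Mac1Gr1 and 1.17, 1.21 and 1.19 in Ter119. Among the progenitors PreMegE was highest at 0.41, 0.51 and 0.56, above KLS (0.06, 0.15 and -0.13), GMP (-0.17, -0.09 and -0.12) and PreGM (-0.53, -0.33 and -0.19). KLS and GMP overlapped. CFUe was lowest at -2.18, -2.33 and -1.06, with replicate 3 again the high value of the fraction.

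Slamf6 (Ly108), a self-binding receptor of lymphocytes, was measured by a pair of probes that differed at the first step. The probe with the higher mean moved little among progenitors, with means of -3.48 ± 0.41 in KLS, -3.59 ± 0.66 in PreMegE, -3.27 ± 0.23 in PreGM and -3.31 ± 0.39 in GMP, all overlapping, and -2.57 ± 0.20 in CFUe. It rose to -0.42, -0.62 and -0.62 in Ter119 and stood at -2.53, -2.64 and -2.19 in Mac1Gr1. The choice between the probes was close, and the other probe had the higher mean in KLS, PreGM, Ter119 and Mac1Gr1. That other probe spanned a wider range. It was -2.46, -3.04 and -3.18 in KLS and -4.48, -6.49 and -5.52 in PreMegE, with 1 of 3 arrays well above background. It then reached 1.04, 1.30 and 0.98 in Ter119 and a mean of -1.07 ± 0.15 in Mac1Gr1. Both probes were highest in Ter119, except that with spike-in scaling the brighter probe had Ter119 and GMP level (-0.0030). Mac1Gr1 came next, overlapping CFUe for the brighter probe.

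**Figure D3:**
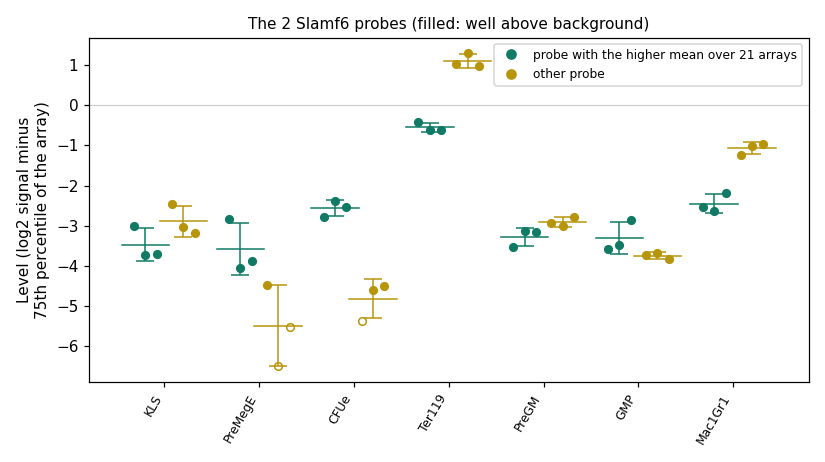
Level of both Slamf6 probes (log2 signal minus the 75th percentile of the array) on each array, with the mean and SD per fraction; filled points were well above background. Both probes are highest in Ter119 with this scaling (means -0.55 and 1.11), the brighter one level with GMP under spike-in scaling, and they part in PreMegE (means -3.59 and -5.50).

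Slamf7, Slamf8 and Slamf9 shared a pattern that set them apart from Slamf1: they were measurable in KLS, near background in PreMegE and CFUe, and highest in the mature fractions (for Slamf8, KLS stood level with Mac1Gr1 under spike-in scaling). Slamf7 (CRACC) is a self-binding receptor of NK, B and plasma cells. Slamf8 and Slamf9 are receptors of myeloid cells whose short tails lack the tyrosine motifs. Slamf7 was at -3.79, -3.75 and -4.29 in KLS and at -4.49, -3.60 and -3.40 in PreGM, which overlapped. It was at -7.73, -7.32 and -6.97 in PreMegE, with no array well above background, and at -6.71, -7.28 and -4.69 in CFUe, where only replicate 3 was well above background. GMP was spread over -5.38, -7.38 and -3.52, again with 1 of 3 arrays above background. The mature fractions stood out, with Mac1Gr1 at -1.89, -1.69 and -1.42 and Ter119 higher still at 0.47, 0.97 and 0.60. The second Slamf7 probe was also highest in Ter119 (-1.11 ± 0.31) and next in Mac1Gr1 (-3.27 ± 0.29), and was well above background on no array of PreMegE, PreGM or GMP.

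Slamf8 was at -3.40, -2.89 and -3.21 in KLS and at -3.81, -3.86 and -4.08 in PreGM. No PreMegE or CFUe array was well above background, and 1 of 3 in GMP was. Its highest levels were in Mac1Gr1 (-1.60, -1.77 and -1.54) and Ter119 (-2.08, -1.99 and -1.69), which overlapped; with spike-in scaling the gap of Mac1Gr1 to the highest other fraction, KLS, was -0.10. Slamf9 was at -2.33, -2.72 and -3.16 in KLS. It too was well above background on no PreMegE or CFUe array, and its myeloid course differed from that of Slamf8, from -4.94, -4.61 and -5.44 in PreGM up to -4.05, -3.78 and -3.23 in GMP and -1.01, -0.91 and -0.63 in Mac1Gr1. Ter119 was highest for Slamf9, at 0.51, 0.87 and 0.53, without overlap with Mac1Gr1. Over the 7 fraction means these 3 members correlated with each other at a Pearson r of 0.93 to 0.94, and the next closest pair was Slamf6 with Slamf7 at 0.80. These correlations are over 7 points that share the same arrays and are given as a description. The high fractions were also those with other cells' markers. Ter119 held the highest B cell, NK cell and mast cell and basophil sums, and Mac1Gr1 the next B cell sum. The granulocytic sums were highest in Ter119 and Mac1Gr1. KLS held the highest macrophage sum, and Mac1Gr1 the next. The part of these cells in the levels of Slamf7, Slamf8 and Slamf9 was not tested.

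**Figure D4:**
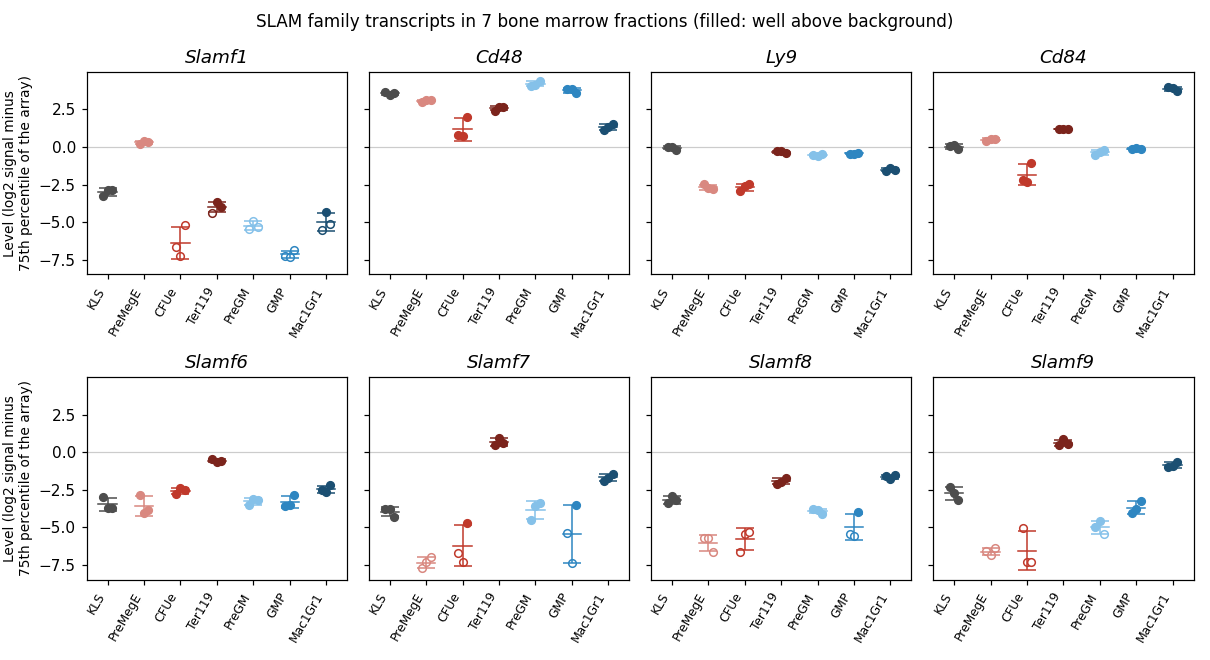
Level of each SLAM family gene (log2 signal minus the 75th percentile of the array) on the 3 arrays of each fraction, with the mean and SD; filled points were well above background. Slamf1 peaks in PreMegE (mean 0.32), Cd84 in Mac1Gr1 (3.88), and Slamf7 and Slamf9 in Ter119 (0.68 and 0.64), where they are far above the open points of PreMegE and CFUe.

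The first erythroid step, PreMegE against KLS, asked what changes as cells enter the CD150+ erythroid and megakaryocyte fraction. Leaving out Slamf1, 4 of 7 members were called, all of them lower in PreMegE; 12.4% of all probes tested were called in this comparison, and 8.86% were lower. Ly9 was 6.15-fold lower (log2 difference -2.62, SE 0.12, adjusted p = 1.0e-10). Slamf7, Slamf8 and Slamf9, none of which was well above background in PreMegE, were at least 2.99-fold, 5.12-fold and 6.91-fold lower (adjusted p = 0.00177, 2.36e-05 and 4.24e-06). Cd48 (-0.49, SE 0.24, adjusted p = 0.157) and Cd84 (0.47, SE 0.23, adjusted p = 0.145) were not called, although the arrays of both fractions did not overlap. In the fit that blocked on slides Cd84 was called as higher in PreMegE (1.02, adjusted p = 0.0246). No slide held both fractions, so that fit compared them only through arrays of other fractions. The other Slamf6 probe was 6.07-fold lower, and the mean of both Slamf6 probes differed by -1.36 (adjusted p = 0.00223), whereas the brighter probe alone differed by -0.11. All 11 macrophage genes were called lower in PreMegE, where 6 of them were still well above background on every array. Also lower, with 0 higher, were 6 of 9 stem cell, 4 of 9 B cell and 3 of 6 plasmacytoid and dendritic genes. Of 9 megakaryocyte genes 7 were higher and 1 lower, and of 8 erythroid genes 4 were higher and 0 lower. The part of these genes in the falls of the members was not tested. With the normexp background correction, which pulls dim signals together, 2 of the 4 calls remained, those of Ly9 and Slamf9.

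The first myeloid step, PreGM against KLS, called 1 of 7 members, Slamf9, against 8.63% of all probes. Slamf9 was 4.80-fold lower in PreGM, where 2 of 3 arrays were well above background (-2.26, SE 0.45, adjusted p = 0.00153). Ly9 was lower by less than 2-fold (-0.48, SE 0.12, adjusted p = 0.00806). The other 5 members had log2 differences between -0.75 (Slamf8) and 0.63 (Cd48), with adjusted p values of 0.0695 to 0.936. With normexp the difference of Slamf9 was under 2-fold (-0.91). All 11 macrophage genes and all 9 stem cell genes were called lower in PreGM as well. So were 4 of 9 B cell genes, with 0 higher, whereas 5 of 12 granulocytic genes were higher and 0 lower. The part of these genes in the fall of Slamf9 was not tested.

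PreMegE against PreGM sets the CD150+ branch beside the first CD150- branch, and both derive from the same starting fraction. Of 7 members 5 were called, all lower in PreMegE, whereas 12% of all probes were called and 6.23% were lower. Ly9 differed by -2.14 (SE 0.12, adjusted p = 1.18e-09) and Cd48 by -1.13 (SE 0.24, adjusted p = 0.00219). Slamf7 was at least 3.23-fold, Slamf8 at least 3.05-fold and Slamf9 at least 1.44-fold lower in PreMegE (adjusted p = 0.00135, 0.000517 and 0.0124). Cd84 went the other way by less than 2-fold (0.84, SE 0.23, adjusted p = 0.00945), and was called when slides were blocked (1.01, adjusted p = 0.00571). Slamf1, which was higher in PreMegE by its gate, and Cd84 were therefore the members whose mean was higher on the CD150+ side. Slamf6 differed by -0.32 with overlap by its brighter probe (adjusted p = 0.473) and by -2.58 by the other probe. The macrophage sums of these fractions were close (-0.81 to 0.25 and -0.08 to 0.16), whereas PreGM had the higher granulocytic sum (7.99 to 8.56 against 5.40 to 5.62) and B cell sum (3.29 to 3.51 against 2.11 to 2.41). PreGM also had the higher plasmacytoid and dendritic sum (5.93 to 5.97 against 3.02 to 3.28) and mast cell and basophil sum (3.37 to 4.72 against 2.07 to 2.32). The NK cell sum (-1.07 to -0.09 against -2.10 to -1.75) and the stem cell sum (3.41 to 3.73 against 3.20 to 3.37) were higher in PreGM too. The erythroid, T cell and megakaryocyte sums were higher in PreMegE. The part of these genes in the differences was not tested. The calls of Cd48 and Slamf9 were less firm: in the fit that blocked on slides they came to -0.92 and -1.37 (adjusted p = 0.0443, under 2-fold, and 0.0803), within the 2 slides that held both fractions to -0.97 and -1.27 for Cd48 and -1.91 and -0.94 for Slamf9, and Slamf9 was also lost without PreGM replicate 2 (adjusted p = 0.0583). Spike-in scaling lost the same 2 calls (-0.97 for Cd48, and -1.46 for Slamf9 with adjusted p = 0.0642), and with normexp Slamf7, Slamf8 and Slamf9 were no longer called.

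**Figure D5:**
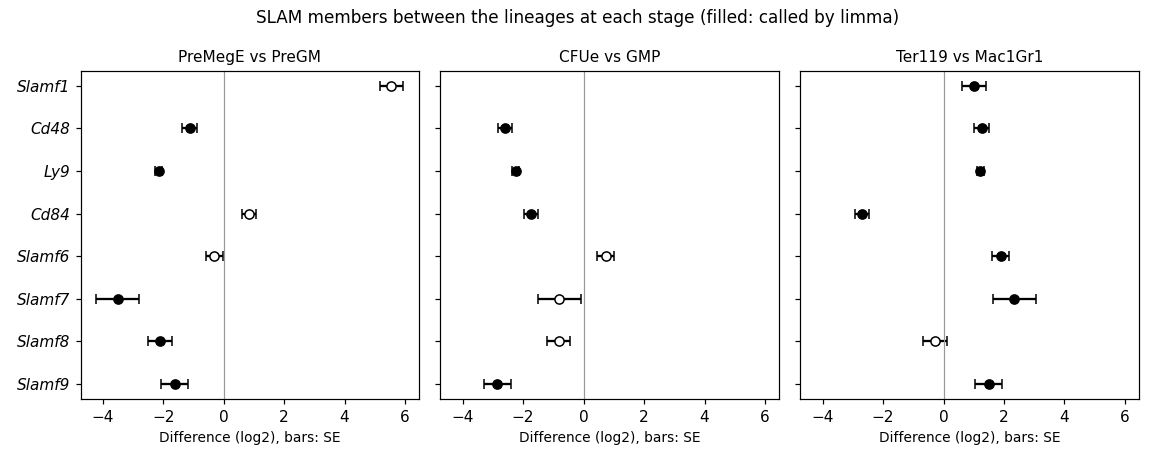
Log2 difference between erythroid and myeloid fractions of the same stage for each member, with the standard error from limma; filled points were called. Slamf1 is drawn open where CD150 was the gate and is left out of CFUe against GMP, where neither fraction was above background. Called members lie to the left in the first 2 panels, and in Ter119 against Mac1Gr1 6 lie to the right and Cd84 to the left at -2.69.

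Against the mean of all 3 CD150- fractions, PreMegE gave 5 called members of 7, beside 14% of all probes. Cd84 was higher by 1.27 (SE 0.18, adjusted p = 3.32e-05). Ly9 was lower by this measure (-1.47, SE 0.10, adjusted p = 6.66e-09), but its mean in CFUe (-2.67) matched that in PreMegE (-2.68), so the difference lay with PreGM and GMP. Slamf7 (-2.18, SE 0.59, adjusted p = 0.00624), Slamf8 (-1.12, SE 0.31, adjusted p = 0.00812) and Slamf9 (-1.53, SE 0.37, adjusted p = 0.00267) were lower too, on signals that were below background in PreMegE and in part of the other arrays. Cd48 did not separate the CD150+ fraction from the mean of the others (0.04, SE 0.20, adjusted p = 0.907). The call of Slamf8 was lost when slides were blocked (adjusted p = 0.0535) and without PreMegE replicate 3 (adjusted p = 0.0824), and with normexp only Cd84 and Ly9 were called.

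The second erythroid step, CFUe against PreMegE, called 3 of 7 members, against 24.7% of all probes. Cd84 fell by 2.35 on the log2 scale (SE 0.23, adjusted p = 2.11e-07) and Cd48 fell by 1.91 (SE 0.24, adjusted p = 5.36e-06). Both differences were larger without CFUe replicate 3, at -2.75 and -2.34, and on the slide that held both fractions, at -2.74 and -2.30. Slamf6 was 2.02-fold higher in CFUe (1.02, SE 0.28, adjusted p = 0.00601), but this value dropped under 2-fold without any 1 of 4 arrays (0.78 at the lowest), and on the shared slide (0.45), and the other probe gave 0.67 with overlap. Slamf7 was not called by its brightest probe (1.11, adjusted p = 0.214). Its second probe was called higher in CFUe (2.15, adjusted p = 0.0120), and so was the mean of both probes (1.63, adjusted p = 0.0289). For each probe only 1 of 3 CFUe arrays, and no PreMegE array, was well above background. Slamf8 and Slamf9 were not well above background in either fraction.

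The second myeloid step, GMP against PreGM, was assessed on all 8 members, since both fractions were CD150-, and 2 were called beside 10.4% of all probes. One was Slamf1, whose brightest probe was not well above background in either fraction, so that no fold is given. The second Slamf1 probe, well above background on 2 of 3 arrays in each fraction, was not called (0.12, adjusted p = 0.914). The other member called was Slamf9, which was 2.48-fold higher in GMP (1.31, SE 0.45, adjusted p = 0.0403). That call was lost without any 1 of 5 of the 6 arrays (adjusted p = 0.0516 to 0.135), and on the slide that held both fractions the difference was 0.90. Slamf8 had a lower mean in GMP (-1.06, SE 0.39, adjusted p = 0.0533), where replicate 3 was the only array well above background; without that array no GMP array was well above background for Slamf8 or Slamf7, and both were then called as lower in GMP (adjusted p = 0.00285 and 0.00676).

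At CFUe against GMP 4 of 8 members were called, all lower in CFUe, beside 26.3% of all probes and 14.2% lower. Cd48 differed by -2.60 (SE 0.24, adjusted p = 1.14e-07), Ly9 by -2.24 (SE 0.12, adjusted p = 7.98e-11) and Cd84 by -1.73 (SE 0.23, adjusted p = 5.52e-06). Slamf9 was at least 2.26-fold lower in CFUe (adjusted p = 4.52e-05). The arrays of CFUe and GMP did not overlap for any of the 4. Slamf7 and Slamf8 were near background in both fractions, with 1 of 3 arrays at most above it. The Slamf6 probes differed in sign: the brighter gave 0.73 (adjusted p = 0.0366, under 2-fold), and the other was called lower in CFUe at -1.07 (adjusted p = 0.0170). Without CFUe replicate 3, 5 members were called, Slamf8 being added at -1.06 (adjusted p = 0.0461). With normexp the difference of Slamf9 was -0.33 (adjusted p = 0.0602).

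The terminal erythroid step, Ter119 against CFUe, called 7 of the 7 members other than Slamf1, all as higher in Ter119. This step moved much of the transcriptome, since 57.2% of all probes were called and 29.2% were higher. Slamf9 was at least 45.4-fold higher (adjusted p = 1.75e-10) and Slamf8 at least 7.71-fold (adjusted p = 7.62e-08). Slamf7 was 120-fold higher by its brightest probe (6.91, SE 0.72, adjusted p = 1.32e-07) and 21.9-fold by the other (adjusted p = 9.85e-06), and for each only 1 of 3 CFUe arrays was well above background, so the sizes are uncertain. Cd84 was 8.27-fold, Ly9 5.13-fold, Slamf6 4.06-fold and Cd48 2.68-fold higher (adjusted p = 1.55e-09, 1.30e-11, 4.61e-06 and 5.13e-05). The second Cd48 probe was not called (0.86, under 2-fold, with overlapping arrays). For Slamf1, given as a description, the brightest probe was at least 1.82-fold higher in Ter119 and the other differed by -0.60 with overlap. The rises went together with leukocyte genes of the Ter119 arrays. All 12 granulocytic, 9 B cell, 6 NK cell and 6 mast cell and basophil genes were called higher. So were 9 of 11 macrophage, 4 of 5 tested T cell and 4 of 6 plasmacytoid and dendritic genes, with 0 lower. The part of these genes in the rises was not tested. Without CFUe replicate 3 all 7 were called again, and on the slide that held both fractions the differences ran from 1.92 (Cd48) to 7.31 (Slamf7). With spike-in scaling, where the median of all probes fell by 1.33, the calls of Cd48 (0.05), Ly9 (0.98) and Slamf6 (0.65) were lost.

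The terminal myeloid step, Mac1Gr1 against GMP, called 6 of 7 members in both directions, beside 56.7% of all probes. Cd84 rose 16.1-fold (4.01, SE 0.23, adjusted p = 4.15e-11) and Slamf9 rose 7.14-fold (2.84, SE 0.45, adjusted p = 2.09e-05). Slamf7 (3.76, SE 0.72, adjusted p = 0.000152) and Slamf8 (3.33, SE 0.39, adjusted p = 5.18e-07) also rose, from a GMP fraction in which 1 of 3 arrays was well above background, so the sizes are uncertain. All 9 B cell genes were called higher in Mac1Gr1 as well (log2 sum 5.02 to 5.77 against 3.16 to 3.38). Of 11 macrophage genes 10 were higher and 1 lower, and of 12 granulocytic genes 8 were higher and 4 lower. Of 6 NK cell genes 3 were higher and 1 lower, and of 6 plasmacytoid and dendritic genes 3 were higher and 2 lower. Among 6 mast cell and basophil genes 0 were higher and 3 lower. What part these genes had in the rises of Cd84, Slamf7, Slamf8 and Slamf9 was not tested. Cd48 fell by 2.43 (SE 0.24, adjusted p = 8.86e-08) and Ly9 was 2.14-fold lower in Mac1Gr1 (SE 0.12 on the log2 scale, adjusted p = 2.70e-07). Slamf6 was not called by its brighter probe (0.85, SE 0.28, adjusted p = 0.0111), whereas the other probe gave 2.68. With spike-in scaling the brighter probe was called as lower in Mac1Gr1 (-1.18, adjusted p = 0.00286). Ly9 was under 2-fold with normexp (-0.83), and Slamf9 was not called with spike-in scaling (0.80, adjusted p = 0.152).

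Between the mature fractions, Ter119 against Mac1Gr1, 7 of 8 members were called, beside 41.9% of all probes. Cd84 was 6.46-fold lower in Ter119 (-2.69, SE 0.23, adjusted p = 2.11e-08). Slamf7 (2.35, SE 0.72), Slamf6 (1.90, SE 0.28), Slamf9 (1.49, SE 0.45), Cd48 (1.26, SE 0.24) and Ly9 (1.21, SE 0.12) were higher in Ter119, with adjusted p values of 1.65e-07 (Ly9) to 0.00858 (Slamf7). Slamf1 was called at 2.01-fold with overlapping arrays, few of them above background (adjusted p = 0.0312), and was not called in 5 of the 10 other settings or without any 1 of 4 arrays. Slamf8 did not differ beyond its spread (-0.28, SE 0.39, adjusted p = 0.535). With spike-in scaling 4 members were called, and Cd48 (0.54), Ly9 (0.49) and Slamf9 (0.76) were not among them. When slides were blocked, Slamf7 (adjusted p = 0.0580) and Slamf9 (adjusted p = 0.233) were lost, and no slide held both fractions.

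The change on the erythroid side was also set against the change on the myeloid side. At the second step (CFUe minus PreMegE, less GMP minus PreGM) 3 of 7 members were called, beside 20.2% of all probes. Cd48 fell more on the erythroid side, and Cd84 fell there but not on the myeloid side (GMP minus PreGM 0.23). Slamf7 had the higher value on the erythroid side, on signals near background (limma adjusted p = 0.0495). At the third step (Ter119 minus CFUe, less Mac1Gr1 minus GMP) 5 of 8 were called, all with the larger value on the erythroid side, beside 39.9% of all probes and 20.9% higher. They were Cd48, Ly9, Slamf6, Slamf7 and Slamf9, but the second Slamf7 probe was not called (1.32, adjusted p = 0.246).

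The partners of the family were described from a list of 25 receptors, adaptors, kinases, phosphatases and effectors, of which 23 had a probe and 22 were tested. In PreMegE against KLS, 7 of the 22 were lower and 0 higher, beside 8.86% of all probes lower, and in PreMegE against PreGM 6 were lower and 1 higher, beside 6.23% of all probes lower. Cd244a, the receptor that binds CD48, had means of 2.03 ± 0.06 in KLS, -1.71 ± 0.16 in PreMegE and 1.76 ± 0.20 in PreGM, so it was lower in PreMegE than in either (-3.74 against KLS and -3.47 against PreGM). Lck, a Src-family kinase of lymphocytes, showed the same order, with means of 1.14 ± 0.05 in KLS, -2.68 ± 0.11 in PreMegE and -0.38 ± 0.07 in PreGM. The partner that was higher in PreMegE than in PreGM was Dok2, an adaptor that restrains Ras signalling (1.60, SE 0.45). Sh2d1a, which encodes SAP, was well above background on 2 Ter119 arrays and on no other array, and Sh2d1b1, which encodes EAT-2, had means of -5.55 ± 0.59 in PreMegE and -2.61 ± 0.87 in PreGM.

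At CFUe against PreMegE 8 of 22 partners were lower and 0 higher, among them Cd244a (-4.23), Dok2 (-5.41) and the phospholipase gene Plcg2 (-3.04). Of all 29527 probes, 24.7% were called there and 4349 were lower. At CFUe against GMP, with 14.2% of all probes lower, 11 were lower and 1 was higher, Csk, the kinase that inhibits Src kinases (1.19). At both terminal steps 12 of 22 partners were higher and 1 lower. The number called in either direction stood close to the background of 57.2% and 56.7% of all probes. The share of partners that were higher stood above the background. Of 29527 probes, 8617 (29.2%) were higher at the erythroid and 8588 at the myeloid terminal step. The myeloid Src kinase Fgr reached 2.58 ± 0.09 in Ter119 and 5.01 ± 0.05 in Mac1Gr1. Cd2, the other receptor for CD48 and a marker of T and NK cells, was above background on all arrays of Ter119 (-0.34 ± 0.26) and Mac1Gr1 (-1.71 ± 0.24), and on 1 array at most of each other fraction. Inpp5d, the gene of the phosphatase SHIP-1, had means of 3.43 to 3.89 in the fractions other than Mac1Gr1, where it was 4.96 ± 0.04.

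The genes with the most similar course over the 7 fraction means were found among 8680 genes that were tested and ranged over at least 2 on the log2 scale. For Slamf1 they were Gnal (r = 0.96), Jund (r = 0.96) and Gucy1b1 (r = 0.95), a subunit of soluble guanylate cyclase with a mean of -1.48 in PreMegE and -3.72 in KLS. For Slamf7 they were Lta, Skap1 and Ccr7 (each r = 0.99), which are genes of lymphocytes. For Slamf8 they were Fcrl1, Crybg1 and Zc3h12d (each above r = 0.99), the first of them a receptor of B cells. For Cd84 they were Ncoa1, Trim12c and Fgd3 (each above r = 0.99), and for Slamf6 Il13, Olfr569 and Tulp1 (each r = 0.99). For Cd48 (B3galt5, Mboat1 and Limk1), Ly9 (Crybg2, Tmprss3 and Prag1) and Slamf9 (Cma2, Best1 and Vamp1) the r values were 0.95 to 0.98. They rest on 7 points chosen from many candidates and are descriptions.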

How the data were processed

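Transcripts were measured in 21 samples on 1-colour arrays, 3 for each of 7 fractions, grouped by the sample labels. The authors scanned the arrays and extracted spot intensity, corrected for background, with Agilent Feature Extraction 10.7.1.1. The authors also deposited a table of normalized log2 values, whose rank correlation with the scanner values was at least 0.9998 on every array; their methods name limma and SAM for normalization and testing, without the scaling used. All arrays were scanned on 1 day. The probe annotation names the build mm9, so RefSeq coordinates of GRCm38.p6 are printed only for promoters.

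Flagged outlier spots (80 to 283 per array) were left out, spots of a probe were averaged, and log2 intensity was scaled to the 75th percentile. Between 56.4% and 77.4% of spots were well above background, and no spot was saturated. A probe was tested where at least 1 fraction had it well above background on its 3 arrays, with limma 3.58.1 (R 4.3.3), in 1 fit with a mean per fraction and no block; the median residual SD was 0.26 with 14 degrees of freedom, and the number of arrays limits the precision. The erythroid and myeloid differences at the last 2 steps were tested as interaction contrasts. On simulated data for CFUe against PreMegE, 168 of 200 probes changed by 2 on the log2 scale were recovered. Python 3.11.15 with pandas 2.3.3 and matplotlib 3.10.9 drew the figures.

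The members, the lists of partners and markers, the comparisons and the tests were chosen with earlier results of these data known, and the motifs after the promoters had been read. Named genes are the members, the listed partners and markers, and the 3 genes most correlated with each member. Partners without a probe (Sh2d1b2 and Fyn) and the sorting genes Kit and Ly6g were not analysed here. Marker lists for T cell, plasmacytoid and dendritic, mast cell and basophil, megakaryocyte and stem cell genes were summed in the same way, each list over genes with a value on every array; Mpo was left out of the granulocytic sum for an outlier spot, and Hbb-b1, Igll1 and Cd68 had no matched probe. In Ter119 their log2 sums were 2.71 to 2.85, 5.00 to 5.34, 5.32 to 5.72, 2.87 to 3.08 and 2.35 to 2.56.

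Alternatives were quantile scaling, scaling to 7 of 10 spike-in probes, normexp background correction with an offset of 50, testing dim probes too, blocking on slides, blocking on replicate numbers, the deposited log2 table, no minimum fold change, a fit of the compared fractions alone, the mean of all probes of a gene, and leaving out each array.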

Additional observations from a re-analysis of the deposited data

Results flagged for a closer look

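At 2 stages the change on the erythroid side differed from the change on the myeloid side, by a limma interaction contrast over all probes, in 8 results. At the second step (CFUe minus PreMegE against GMP minus PreGM) 3 of 7 members were called, beside 20.2% of all probes. Cd48 fell more on the erythroid side, by an extra -1.47 on the log2 scale (SE 0.35, adjusted p = 0.00329). Cd84 fell on the erythroid side only, with a difference of -2.57 (SE 0.32, adjusted p = 9.06e-06). Slamf7 had a difference of 2.70 (SE 1.02, adjusted p = 0.0495), which rested on signals near background and was lost without any 1 of 9 arrays (adjusted p = 0.0509 to 0.130) and in 6 other settings, among them the slide block (2.17, adjusted p = 0.147) and spike-in scaling (1.17, adjusted p = 0.246).

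At the third step (Ter119 minus CFUe against Mac1Gr1 minus GMP) 5 of 8 members were called, all with the larger rise on the erythroid side, beside 39.9% of all probes and 20.9% higher. Cd48 rose in Ter119 and fell in Mac1Gr1, a difference of 3.86 (SE 0.35, adjusted p = 8.85e-08), and Ly9 did the same, with 3.46 (SE 0.17, adjusted p = 7.86e-11). Slamf9 differed by 4.34 (SE 0.64, adjusted p = 2.09e-05), Slamf7 by 3.15 (SE 1.02, adjusted p = 0.0146; 1.32 and not called by its second probe, adjusted p = 0.246) and Slamf6 by 1.17 (SE 0.40, adjusted p = 0.0196). The sizes for Slamf9 and Slamf7 are uncertain, since 0 and 1 of 3 CFUe arrays were well above background. Cd84 was not called (-0.96, SE 0.32, adjusted p = 0.0172, under 2-fold). CFUe and Ter119 are the fractions in which replicate 3 and the leukocyte markers stood apart; without CFUe replicate 3, 5 members were again called, with Cd48 at 4.29 and Ly9 at 3.55. Slamf7 was lost when slides were blocked (adjusted p = 0.0800) and in the fit of the compared fractions alone (adjusted p = 0.0503), and Slamf6 was lost without GMP replicate 3 (0.94, adjusted p = 0.0566) and with normexp (0.70).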

How the results depend on the processing

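Of the 12 counts of called members, those for CFUe against PreMegE, Mac1Gr1 against GMP, CFUe against GMP and the third-step difference stayed within 1.5 times of the reported value in every setting. With normexp the count was 2 for PreMegE against KLS, PreMegE against PreGM and PreMegE against the CD150- mean, and 0 for PreGM against KLS and GMP against PreGM. With spike-in scaling it was 4 for Ter119 against CFUe and for Ter119 against Mac1Gr1, and 3 for PreGM against KLS and PreMegE against PreGM. For GMP against PreGM it was 1 with quantile scaling, no filter, the slide block, the deposited table and the mean of probes. For PreGM against KLS it was 2 with no minimum fold change. The counts take Slamf6 from its brighter probe. The other Slamf6 probe alone was called in PreMegE against KLS, against PreGM and against the CD150- mean. It alone was also called in CFUe against GMP, Mac1Gr1 against GMP and the second-step difference. In CFUe against PreMegE only the brighter Slamf6 probe was called. For Slamf7, the second probe alone was called in CFUe against PreMegE. Its brightest probe alone was called in PreMegE against PreGM and in the second-step and third-step differences. For Slamf1, the brightest probe alone was called in GMP against PreGM and in Ter119 against Mac1Gr1. Spike-in scaling also added calls, of Ly9 (-1.09) and Slamf8 (-1.36) in PreGM against KLS, Ly9 (1.13) and Cd84 (1.24) in GMP against PreGM, Slamf7 (-2.19) and Slamf8 (-2.20) in CFUe against GMP, Slamf8 (-1.01) in Ter119 against Mac1Gr1, and Ly9 (-1.64) and Slamf9 (-2.77) in the second-step difference. A further added call was Slamf6 in Mac1Gr1 against GMP (-1.18), in the direction opposite to the main value of 0.85. Leaving out 1 array gave 1 to 3 for GMP against PreGM, 2 to 5 for the second-step difference, 2 to 3 for CFUe against PreMegE, 4 to 6 for CFUe against GMP and for the third-step difference, and 4 to 5 for PreMegE against PreGM and against the CD150- mean. It gave 6 to 7 for Mac1Gr1 against GMP and Ter119 against Mac1Gr1, 4 for PreMegE against KLS, 7 for Ter119 against CFUe and 1 for PreGM against KLS.

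Values that changed sign were not called in the main setting. For Slamf6 they were, in PreMegE against KLS, 0.13 (quantile), 0.083 (normexp), 0.14 (deposited table), and -0.49 to 0.12 over the fits that left out 1 array. Slamf6 also came to -1.18 in Mac1Gr1 against GMP (spike-in, where it was called), to -0.65 (spike-in) and -0.17 (mean of probes) in CFUe against GMP, and to -0.48 (spike-in) in the second-step difference. In CFUe against GMP, Slamf7 came to 0.26 (normexp), 0.014 (mean of probes) and -1.78 to 0.15 with 1 array left out, and Slamf8 to 0.27 (normexp). In the second-step difference, Ly9 came to 0.11 (quantile), 0.13 (deposited table), and -0.20 to 0.029 with 1 array left out, and Slamf8 to -0.25 (spike-in). The gap between the highest fraction and the highest of the others turned to -0.57 for Cd48, -0.041 for Ly9, -0.0030 for Slamf6 and -0.10 for Slamf8 with spike-in scaling. The cause of these changes was not tested.

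Same-numbered arrays of compared fractions showed no steady deviation together (correlations of -0.37 to 0.37). With 3 arrays per fraction this cannot settle whether the numbers pair the samples, and the main fit used no pairing. With the replicate number as a block all 12 counts were as reported, for example 4 of 7 for PreMegE against KLS and 5 of 7 for PreMegE against PreGM. No member gained or lost a call in that fit. Spike-in scaling moved the median difference of all probes by between -2.03 and 1.02, so that GMP against PreGM had 14019 probes higher and 506 lower, beside 1183 and 1878 in the main setting. The number of probes called changed by a factor of up to 4.75 with spike-in scaling and 3.07 with no minimum fold, and down to 0.474 with normexp. Dim signal limits Slamf7, Slamf8, Slamf9 and Slamf1 in PreMegE, CFUe or GMP.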
